A study of Arabidopsis thaliana with 12 samples.

Results

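The comparison described here set 3 RNA-sequencing libraries from hypoxic rosettes of med25-1 plants against 3 libraries from rosettes of the same line kept under control conditions, 6 of the 12 libraries of the study, and covered all genes. These libraries were chosen by the group named in the deposited table's headers. The hypoxia group was Arabidopsis thaliana med25-1 held at 1% oxygen for 3 h, and its control was med25-1 without that treatment. Both groups carried the med25-1 mutation, were 3 weeks old and grew on plates with half-strength MS medium and 0.5% sucrose, so that the comparison stays within the mutant line. The other 6 libraries were wild-type hypoxia and wild-type control, 3 each, and served as the second line. Whole rosettes were used, and each group had 3 biological replicates per the labels. The sources used here do not give the position or the kind of the med25-1 lesion, so whether the line lacks all function of the gene is unknown here.

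In plants, low oxygen is read through the group VII ethylene response factors. With oxygen present, plant cysteine oxidases oxidise the amino-terminal cysteine of these factors, which marks them for destruction by the N-degron pathway. When oxygen falls the factors persist and switch on genes for fermentation, sugar breakdown and nitric oxide removal. MED25 belongs to Mediator, a protein complex that passes the signal of bound transcription factors to RNA polymerase II. The comparison asked which transcripts still respond to low oxygen in a line mutated in this subunit.

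MED25 itself (AT1G25540, chromosome 1, 8969065 to 8974815, TAIR10) stood at 14.2, 15.3 and 21.5 CPM in the hypoxia libraries of med25-1 and at 22.8, 20.7 and 31.2 CPM in its control libraries, given as replicates 1, 2 and 3 here and below. CPM are counts of gene reads scaled to library size. In wild type it stood at 26.2, 38.0 and 33.8 CPM under hypoxia and at 34.6, 32.7 and 34.9 CPM in control. The transcript was present in all 6 med25-1 libraries, and its hypoxia difference in that line missed the threshold (log2 fold change -0.56 ± 0.20 SE; edgeR adjusted p = 0.116). Without hypoxia replicate 3 it was -0.75 and passed (edgeR adjusted p = 0.0476). Where the lesion lies is unknown here, so the transcript level does not check the label.

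Gene reads per library ran from 7170796 to 20501572, and the lowest total belonged to med25-1 hypoxia replicate 3. The same library differed from its group in composition. The 20 genes with the most reads there held 8.97% of the total, against 14.8% and 14.04% in replicates 1 and 2. Its score on the first principal component was -127, against -54.6 and -58.1. The 7 leaf markers, genes of light harvesting and carbon fixation, summed to 26412, 26920 and 16116 CPM in the hypoxia libraries and to 21134, 26891 and 22951 CPM in the control libraries. The 6 root markers stayed at or below 0.344 CPM in sum, and the 5 floral markers summed to 1.71 to 3.24 CPM under hypoxia and to 0.612 to 0.901 CPM in control. PI, a floral organ identity gene, was the single tested floral marker and was called higher, at 1.52, 2.65 and 1.05 CPM against 0.347, 0.340 and 0.250 CPM (log2 fold change 2.52 ± 0.40; edgeR adjusted p = 0.00381, and 0.0605 when only the 2 med25-1 groups were fitted). In RNA from whole rosettes, fewer cells of a type and less RNA per cell cannot be told apart.

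Of 18212 tested genes, 342 (1.88%) were called higher under hypoxia in med25-1 and 619 (3.4%) were called lower, at a Benjamini-Hochberg adjusted p under 0.05 from edgeR's quasi-likelihood test. The median log2 fold change was 1.39 among genes called higher and -0.96 among genes called lower, against 0.02 over all tested genes. Changes of at least 4-fold numbered 90 among the genes called higher and 57 among those called lower. Higher genes made up 35.6% of the calls with edgeR and 51.5% with DESeq2, which called 992 genes higher and 934 lower. In 956 of the 961 called genes (5.28% of those tested) the 3 hypoxia libraries lay wholly above or wholly below the 3 control libraries, a separation that 9.36% of all tested genes showed upward and 13.3% downward. Without hypoxia replicate 3, 321 genes (1.74%) were called higher and 540 (2.93%) lower, and 678 of the 961 calls were shared. The total was 1841 without hypoxia replicate 2, 323 without control replicate 1 and 418 without control replicate 3. Through the shared estimate of spread it was also 633 and 634 without wild-type control replicates 2 and 3 and 604 without wild-type hypoxia replicate 3. A set of 282 genes, 94 higher and 188 lower, kept its call and stayed within 1.5-fold of its fold change in all 12 fits that left out 1 library. Genes named below belong to it unless a sentence gives the library on which a call turned. Counts of called list members below that use all libraries are to be read against the 1.88% of all tested genes called higher and the 3.4% called lower. A count from another fit is to be read against that fit's own calls. These were 860 higher and 981 lower without hypoxia replicate 2, and 704 and 677 without control replicate 2. Without hypoxia replicate 1 they were 445 and 486, without control replicate 1 they were 108 and 215, and without control replicate 3 they were 154 and 264. With only the 2 med25-1 groups fitted they were 77 and 98.

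**Figure D1:**
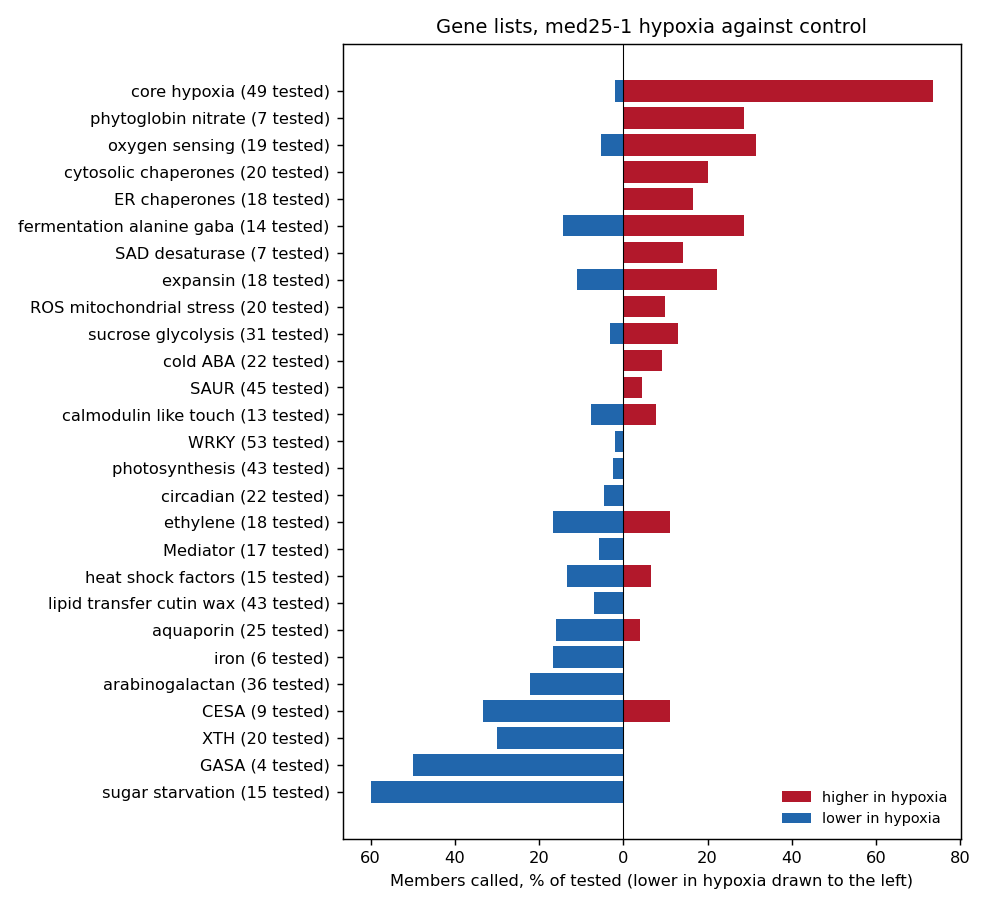
Percent of each gene list's tested members called higher (right) or lower (left) under hypoxia in med25-1, for lists with at least 1 call. The core hypoxia list, with 36 of 49 members called higher, has the longest bar to the right.

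The core hypoxia list holds genes induced by oxygen shortage in many kinds of plant cells. Of its 49 tested members, 36 were called higher and 1 lower, and 28 of the 36 were stable in the sense given above. Without hypoxia replicate 3 the counts were 35 and 0. Its median log2 fold change was 3.14, and 2.95 in wild type. The summed level of the list was 6356, 6913 and 6168 CPM in the hypoxia libraries against 1641, 1638 and 2131 CPM in the control libraries, so hypoxia replicate 3 lay with its group here. The list was compiled from published hypoxia responses and from earlier results of these data, so its direction is a description. The member called lower was PHI-1, a phosphate-induced gene of the EXORDIUM family, and its call was lost without hypoxia replicate 1 or 3 and without control replicate 1 or 3, at adjusted p of 0.0672, 0.0730, 0.0791 and 0.118.

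Letters of the hypoxia-responsive promoter element, AAACCA followed by any 3 bases and then GC, were searched on both strands in the 300 bases from 250 before to 50 after each gene start. This element is known as a binding site of the group VII factors RAP2.12 and RAP2.2. It is shown because ADH1 and other genes of the core list hold it. The letters lay in 1.12% of 18184 promoters of tested genes. They lay in 4.09% of the promoters of genes called higher (14 of 342), in 0.485% of those called lower (3 of 619) and in 14.3% of those on the core list (7 of 49). A match is a description of letters and not a site shown to be bound. The 250 bases upstream of ADH1 and of AT4G10270, a member of a family annotated as wound-responsive, are given from the RefSeq promoters on TAIR10, 5′ to 3′ on the gene's strand, with the matched letters in capitals.
ADH1, chr1:28975005-28975254, plus strand: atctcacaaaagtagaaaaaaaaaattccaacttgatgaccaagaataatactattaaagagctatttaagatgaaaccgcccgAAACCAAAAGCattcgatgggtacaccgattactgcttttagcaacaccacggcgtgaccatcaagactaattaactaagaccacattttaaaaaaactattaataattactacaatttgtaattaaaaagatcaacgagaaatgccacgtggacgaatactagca
AT4G10270, chr4:6374484-6374733, plus strand: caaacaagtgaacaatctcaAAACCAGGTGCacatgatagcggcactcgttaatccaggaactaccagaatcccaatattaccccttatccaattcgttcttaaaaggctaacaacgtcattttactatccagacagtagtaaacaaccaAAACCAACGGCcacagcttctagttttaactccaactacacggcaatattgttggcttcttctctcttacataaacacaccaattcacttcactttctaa

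The ADH1 match began 166 bases before the gene start, and AT4G10270 held a pair, at 230 and 100 bases before it. Among the other genes called higher, 4 that are described below and carried the letters within 50 bases after the annotated start are shown as windows of at most 30 bases, to compare the variable positions. AT3G27220 held a second match there, which is not printed.
AT4G10265, chr4:6373634-6373663, minus strand: aaaccaagaAAACCAGCAGCtacaaaaccc
AT3G27220, chr3:10053732-10053761, minus strand: caaaattggAAACCACCGGCgtgatttctg
PFK6, chr4:15848503-15848522, minus strand: caaaaggaaAAACCAGCCGC
PCO1, chr5:4898641-4898670, plus strand, match on the opposite strand: aaaagaatgGCCCCTGGTTTtgtaatcgat

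The same windows were searched for 3 other sets of letters. The G-box, CACGTG, lay in 14.9% of promoters of genes called higher, in 9.69% of those called lower and in 14.3% of those on the core list, against 8.89% of all. The GCC box of ethylene response factors, GCCGCC, lay in 2.63%, 2.75% and 8.16% of these, against 2.76% of all. The heat shock element core, GAANNTTC, lay in 13.2%, 9.05% and 18.4% of these, against 11.5% of all.

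Among the oxygen-sensing genes, 6 of 19 were called higher and 1 lower, against 1.88% and 3.4% of all tested genes. PCO1 (AT5G15120, on chromosome 5 from 4898641 to 4900734), one of these cysteine oxidases, stood at 107, 106 and 91.5 CPM under hypoxia against 0.173, 0 and 0.1 CPM in control. Its log2 fold change was 9.93 ± 0.29 (edgeR adjusted p = 3.3e-09), and 10.59 without control replicate 1. PCO2, the second such oxidase, stood at 25, 18.3 and 13.3 CPM against 0.173, 0.272 and 0.200 CPM (log2 fold change 6.43 ± 0.33; edgeR adjusted p = 6.0e-07). These oxidases were close to undetected in control rosettes, and every hypoxia library held them. The relatives PCO4 and PCO5, known to be expressed regardless of oxygen, were at like levels in both groups. PCO4 stood at 24.3, 19.4 and 19.0 CPM against 22.3, 20.4 and 25 CPM (edgeR adjusted p = 0.642), and PCO5 at 26.9, 43.9 and 45.1 CPM against 39.4, 41.7 and 49.1 CPM (edgeR adjusted p = 0.597).

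The transcription factors of the pathway did not move together. RAP2.12, whose protein is controlled by oxygen, stood at 134, 149.9 and 153 CPM under hypoxia and at 134, 136 and 154 CPM in control, with a log2 fold change of 0.04 ± 0.13 (edgeR adjusted p = 0.872). RAP2.2 differed by -0.21 ± 0.23 (edgeR adjusted p = 0.611). RAP2.3, the other constitutive member, fell in med25-1, at 146, 119 and 96.7 CPM against 401, 261 and 461 CPM (log2 fold change -1.63 ± 0.25; edgeR adjusted p = 0.0033), and by -1.15 in wild type. HRE2, a member known to be induced by hypoxia, had 117 reads over the hypoxia group and 2 over the control group, a ratio of 74.3 with an exact 95% counting interval of 20.1 to 621. HRE1 overlapped between groups, at 7.71, 7.49 and 4.09 CPM against 12.4, 5.64 and 12 CPM (edgeR adjusted p = 0.336).

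A pair of regulators downstream of these factors rose. HRA1 (AT3G10040, chromosome 3, 3096345 to 3098417), a trihelix factor that restrains RAP2.12, stood at 236, 389 and 176 CPM against 2.89, 1.97 and 2.55 CPM (log2 fold change 6.75 ± 0.38; edgeR adjusted p = 1.0e-06). LBD41 (AT3G02550, chromosome 3, 536500 to 538126), a LOB-domain factor, stood at 337, 412 and 336 CPM against 8.67, 5.44 and 7.50 CPM (log2 fold change 5.64 ± 0.25; edgeR adjusted p = 1.5e-07). The groups of both genes were far apart, with every control library below 9 CPM and every hypoxia library above 170 CPM. AT3G03270, annotated as an adenine nucleotide alpha hydrolase-like protein, rose by 3.19 ± 0.28 on the log2 scale (edgeR adjusted p = 5.0e-05).

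**Figure D2:**
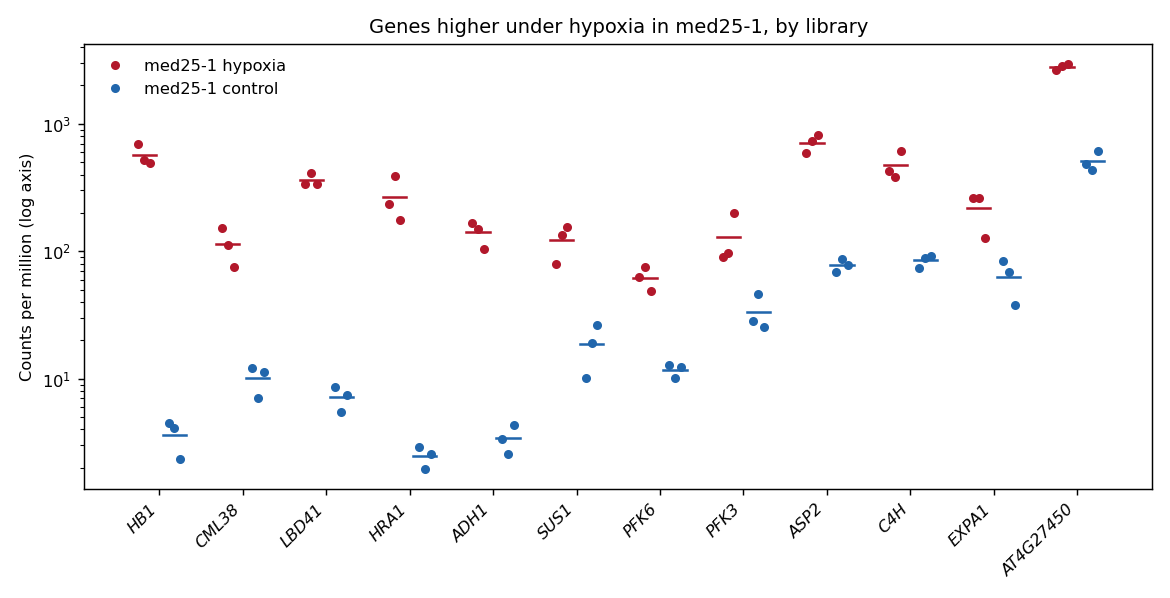
CPM (log axis) in each med25-1 library for 12 genes that rose, hypoxia left and control right; points are libraries and bars are group means. For each gene the 3 hypoxia points lie above the 3 control points; HB1 spans 497 to 700.0 CPM against 2.35 to 4.51 CPM.

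Of the 31 members of the sucrose and glycolysis list, 4 were called higher and 1 lower. Over all tested genes, 1.88% were called higher and 3.4% lower. SUS1 (AT5G20830, chromosome 5, 7050217 to 7055398), a sucrose synthase that splits sucrose without spending ATP, rose to 78.8, 133 and 154 CPM against 10.2, 19.2 and 26.3 CPM (log2 fold change 2.71 ± 0.36; edgeR adjusted p = 0.00119). Its value in wild type was 4.36, and the difference between lines was -1.65 ± 0.49 (edgeR adjusted p = 0.929). SUS4, a close relative of SUS1 at far lower level, was called higher at 0.758, 1.11 and 0.659 CPM against 0.0578, 0.204 and 0 CPM. Its log2 fold change of 3.34 became 4.63 without control replicate 2, and its call was lost without control replicate 1 or 3, at adjusted p of 0.0822 and 0.0505.

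Both phosphofructokinases called are cytosolic enzymes of the committed step of glycolysis. PFK6 stood at 62.5, 75.4 and 48.4 CPM against 12.7, 10.2 and 12.3 CPM (log2 fold change 2.41 ± 0.18; edgeR adjusted p = 1.3e-05). PFK3 stood at 89.6, 97.0 and 199 CPM against 28.5, 46.1 and 25.4 CPM (log2 fold change 1.95 ± 0.31; edgeR adjusted p = 0.00426, and 0.0702 when only the 2 med25-1 groups were fitted). FBA5, a fructose-bisphosphate aldolase, went the other way, at 49.5, 74.3 and 18.3 CPM against 204, 191 and 187 CPM (log2 fold change -2.02 ± 0.38; edgeR adjusted p = 0.0105, and 0.108 with only the 2 groups). GAPC2, the cytosolic glyceraldehyde-3-phosphate dehydrogenase, stood at 766, 872 and 841 CPM against 586, 634 and 598 CPM. It did not overlap between groups but missed the threshold (edgeR adjusted p = 0.0746). The number of members called lower was 3 without hypoxia replicate 3 and 2 without hypoxia replicate 2. With only the 2 groups fitted the counts were 2 higher and 0 lower.

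Of 14 genes of fermentation and of alanine and GABA metabolism, 4 were called higher and 2 lower. Among the 4, ALAAT1, an alanine aminotransferase, lost its call without hypoxia replicate 3 (edgeR adjusted p = 0.119). That call was also lost without any of the med25-1 control libraries (edgeR adjusted p of 0.0760 to 0.196), without several wild-type libraries and with only the 2 groups fitted (edgeR adjusted p = 0.192). PDC1 (AT4G33070, chromosome 4, 15952257 to 15954803), a pyruvate decarboxylase that opens the route to ethanol, stood at 20.9, 15.3 and 6.59 CPM against 0.289, 0.136 and 0 CPM. Its log2 fold change was 6.66 ± 0.74 (edgeR adjusted p = 3.4e-04), 7.77 without control replicate 1 and 6.0 without control replicate 3, and it was 9.03 in wild type. ADH1 (AT1G77120, chromosome 1, 28975255 to 28977417), the alcohol dehydrogenase that completes the route and regenerates NAD+, stood at 167, 150.4 and 104 CPM against 3.35, 2.58 and 4.30 CPM (log2 fold change 5.35 ± 0.35; edgeR adjusted p = 3.6e-06). Both genes were lowest in replicate 3 within the hypoxia group, and above every control library in all 3. PDC2, the more abundant decarboxylase, did not overlap between groups, at 131, 208 and 123 CPM against 76.2, 69.8 and 101 CPM, yet missed the threshold in med25-1 (log2 fold change 0.90 ± 0.30; edgeR adjusted p = 0.0988). It was called in wild type at 2.2, and the difference between lines was not called (-1.29 ± 0.43; edgeR adjusted p = 0.929).

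AT4G17260, annotated in the lactate and malate dehydrogenase family, rose modestly, at 14.1, 14 and 12 CPM against 5.61, 6.66 and 5.55 CPM (log2 fold change 1.17 ± 0.17; edgeR adjusted p = 0.00221). POP2, the GABA transaminase that removes GABA, fell by 0.80 ± 0.13 on the log2 scale (edgeR adjusted p = 0.00587, and 0.107 with only the 2 groups). GDH2, a glutamate dehydrogenase, stood at 87.5, 69.3 and 69.2 CPM against 129, 119.7 and 225 CPM. The log2 fold change was -1.07 ± 0.23 (edgeR adjusted p = 0.0196), and without control replicate 3 it was -0.73 and the call was lost (adjusted p = 0.0552), which left 1 list member called lower. With only the 2 groups fitted no member was called lower.

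Phytoglobins bind and remove nitric oxide when oxygen is scarce. HB1 (AT2G16060, chromosome 2, 6982531 to 6983777), the class 1 phytoglobin, stood at 700.0, 519.6 and 497 CPM under hypoxia against 4.51, 4.08 and 2.35 CPM in control. Its log2 fold change was 7.30 ± 0.27 (edgeR adjusted p = 3.7e-08), and 6.65 in wild type. GLB3, a truncated haemoglobin, stood at 14.1, 13.5 and 14.1 CPM against 5.49, 4.89 and 4.45 CPM (log2 fold change 1.49 ± 0.16; edgeR adjusted p = 2.8e-04). These 2 were the calls among the 7 tested genes of the phytoglobin and nitrate list.

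Several genes with little-known products gave some of the highest fold changes. AT2G17850, a rhodanese-like protein, had 621 reads over the hypoxia group and none over the control group, at least 263-fold higher against a floor of 3 reads over the group, and at least 161.9-fold without control replicate 3. AT5G66985, of unknown function, had 261 reads against none, at least 110.5-fold higher and at least 68-fold without control replicate 3. SAD6, a stearoyl-ACP desaturase that introduces the first double bond of fatty acids, had 1735 reads against 1, a ratio of 2204 with an exact 95% counting interval of 395 to 8.71e+04. That single read lay in control replicate 3, without which the ratio became a bound of at least 452-fold. The other 6 tested desaturases of its family were not called.

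AT4G10265, from the wound-responsive family, stood at 43.7, 29.0 and 26.8 CPM against 0.231, 0.068 and 0.350 CPM (log2 fold change 7.13 ± 0.39; edgeR adjusted p = 9.6e-07). The next called gene, AT4G05775, overlaps AT4G10270 on the opposite strand. AT4G10270 had 58 reads over the hypoxia group and none over the control group, at least 24.6-fold higher and at least 15.1-fold without control replicate 3. AT4G05775, which was not in the stable set, had 47 reads against 3, a ratio of 19.9. Those 3 reads lay in control replicate 3, without which the value was a bound of at least 12.25-fold. The counting strand is unknown here, so the reads of these overlapping genes may not be separable. A more distant member, AT4G33560, stood at 30.5, 56.7 and 23.7 CPM against 1.21, 0.951 and 0.750 CPM (log2 fold change 5.26 ± 0.43; edgeR adjusted p = 2.7e-05). SRO5, a relative of RCD1 studied in stress tolerance, rose by 5.49 ± 0.33 on the log2 scale (edgeR adjusted p = 1.8e-06). AT4G39675 and AT4G24110 rose by 6.03 ± 0.31 (edgeR adjusted p = 6.0e-07) and 4.64 ± 0.35 (edgeR adjusted p = 1.6e-05). AT3G27220, a kelch-repeat protein, rose by 4.29 ± 0.19 (edgeR adjusted p = 1.3e-07). Of the 13 calmodulin-like and touch genes, CML38, a calcium sensor of hypoxia-induced granules, was the one called higher, at 153, 112 and 75.0 CPM against 12.1, 7.07 and 11.3 CPM (log2 fold change 3.48 ± 0.27; edgeR adjusted p = 1.8e-05). That list had 3 members called higher without hypoxia replicate 2 and 2 without control replicate 2.

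Fold change and gain in level picked out different genes. Besides HB1, 3 genes with stable calls stood among the 8 largest gains in CPM, and were chosen after their values were seen. AT4G27450, an aluminium-induced protein with YGL and LRDR motifs, stood at 2628, 2863 and 2937 CPM against 483, 435 and 614 CPM (log2 fold change 2.46 ± 0.18; edgeR adjusted p = 1.4e-05). ASP2, the cytosolic aspartate aminotransferase, averaged 712 ± 119 CPM under hypoxia and 78.1 ± 9.75 CPM in control (SD, n = 3 each), a log2 fold change of 3.19 ± 0.19 (edgeR adjusted p = 1.7e-06). C4H, cinnamate 4-hydroxylase of phenylpropanoid synthesis, averaged 475 ± 119 CPM under hypoxia and 84.7 ± 9.63 CPM in control (SD, n = 3 each), a log2 fold change of 2.49 ± 0.18 (edgeR adjusted p = 1.2e-05). All of them were in the same range in wild type, at log2 fold changes of 2.88, 3.73 and 2.53.

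Ethylene receptors and their regulators moved in both directions, with 2 of 18 members of the list called higher and 3 lower. The shares over all tested genes were 1.88% higher and 3.4% lower. ETR2, an ethylene receptor, rose to 11.4, 17.9 and 12.7 CPM against 2.37, 2.11 and 2.40 CPM (log2 fold change 2.61 ± 0.20; edgeR adjusted p = 1.9e-05). ERS1, another receptor, fell to 33.3, 38.7 and 41.1 CPM against 76.3, 85.3 and 71.2 CPM (log2 fold change -1.04 ± 0.12; edgeR adjusted p = 3.6e-04). EBF2, the F-box protein that removes EIN3, fell to 41.9, 50.8 and 49.4 CPM against 119.9, 114 and 117 CPM (log2 fold change -1.31 ± 0.17; edgeR adjusted p = 0.00104). The receptor ERS2 fell as well, by 1.63 ± 0.28 on the log2 scale (edgeR adjusted p = 0.00652, and 0.0662 with only the 2 groups). The second call upward was ACO1, which makes ethylene from its precursor ACC. The log2 fold change was 2.16 ± 0.52 (edgeR adjusted p = 0.0347). It was 1.47 without hypoxia replicate 1, where the call was lost, and the call was also lost without any of the 3 med25-1 control libraries or without wild-type hypoxia or control replicate 3.

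Genes of cell wall expansion were among those that fell. Of 20 tested XTH genes, whose enzymes cut and rejoin xyloglucan, 6 were called lower and none higher, with a median log2 fold change of -0.76 in med25-1 and -1.63 in wild type. Without hypoxia replicate 3 the counts were 7 lower and 1 higher. The summed level of the family was 340, 376 and 364 CPM under hypoxia against 1057, 737 and 1063 CPM in control, and the groups did not overlap. XTH6 (AT5G65730, chromosome 5, 26298728 to 26300529) fell to 15.2, 10.2 and 3.43 CPM against 109, 72.9 and 115 CPM (log2 fold change -3.32 ± 0.43; edgeR adjusted p = 0.00104). XTH22, a touch-induced member, fell to 18.3, 30.2 and 15.0 CPM against 183, 97.2 and 159 CPM (log2 fold change -2.78 ± 0.41; edgeR adjusted p = 0.00233). XTH25 and XTH22 lie next to each other on chromosome 5, 565 bases apart on the same strand, and XTH25 fell by 1.79 ± 0.34 (edgeR adjusted p = 0.011). XTH27 fell by 1.25 ± 0.19 (edgeR adjusted p = 0.00323) and XTH30 by 0.75 ± 0.13 (edgeR adjusted p = 0.00872, and 0.119 with only the 2 groups). XTH4 fell by 1.64 ± 0.30 (edgeR adjusted p = 0.0104), and lost its call without control replicate 1 (adjusted p = 0.0503).

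**Figure D3:**
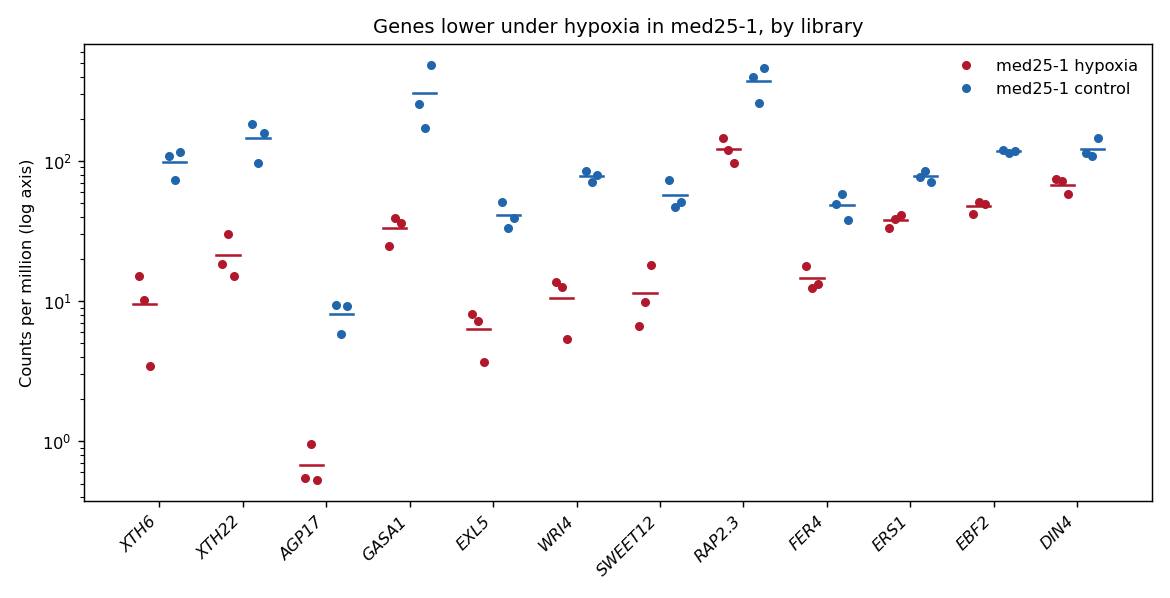
CPM (log axis) in each med25-1 library for 12 genes that fell, hypoxia left and control right; points are libraries and bars are group means. For each gene the 3 hypoxia points lie below the 3 control points; XTH6 spans 3.43 to 15.2 CPM against 72.9 to 115 CPM.

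Arabinogalactan proteins, heavily glycosylated proteins of the cell surface, gave 8 of 36 called lower and none higher. Their median log2 fold change was -0.24, with 16 members positive and 20 negative. In wild type 14 were called lower, with a median of -0.95. The med25-1 count called lower was 3 without control replicate 1, 5 without control replicate 3 and 2 with only the 2 med25-1 groups fitted. Of the 2 stable members AGP17 fell further, to 0.551, 0.956 and 0.527 CPM against 9.36, 5.84 and 9.21 CPM (log2 fold change -3.50 ± 0.35; edgeR adjusted p = 1.6e-04). The other, FLA18, fell by 1.36 ± 0.22 (edgeR adjusted p = 0.00444, and 0.072 with only the 2 groups). AGP7 had a larger called fall, at a log2 fold change of -3.96, which moved to -4.86 without hypoxia replicate 1. Of the 4 tested GASA genes, small gibberellin-regulated peptides, 2 were called lower. GASA1 fell to 24.7, 39.3 and 36.1 CPM against 256, 173 and 486 CPM (log2 fold change -3.19 ± 0.47; edgeR adjusted p = 0.00238). GASA14 fell to 28.1, 20.4 and 10.3 CPM against 119, 74.2 and 102 CPM (log2 fold change -2.31 ± 0.30; edgeR adjusted p = 0.00112). GASA4 and GASA6 gave log2 fold changes of 0.20 and 0.02 and were not called.

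Expansins, which loosen the wall, did not follow the XTH genes. Of 18, 4 were called higher and 2 lower, with a median log2 fold change of 0.86, and 0.14 in wild type. EXPA1 stood at 262, 263 and 127 CPM against 83.6, 69.1 and 37.6 CPM (log2 fold change 1.78 ± 0.33; edgeR adjusted p = 0.0105, and 0.0999 with only the 2 groups). EXPA10 stood at 5.85, 12.2 and 6.19 CPM against 1.44, 1.09 and 1.70 CPM (log2 fold change 2.52 ± 0.35; edgeR adjusted p = 0.00152). Only 2 members were called higher when hypoxia replicate 1 was left out, and likewise without control replicate 1, control replicate 3, wild-type hypoxia replicate 3 and wild-type control replicate 2, each on its own. The number called lower was 1 without any 1 of the hypoxia libraries or without control replicate 1. With only the 2 groups fitted the counts were 1 higher and 0 lower. Of the 45 tested SAUR genes, small auxin-responsive transcripts, 2 were called higher, and 7 were without hypoxia replicate 3. Among all tested genes 1.88% were called higher, and 1.74% without hypoxia replicate 3. SAUR53 stood at 4.62, 2.34 and 2.37 CPM against 0.636, 0.408 and 0.3 CPM (log2 fold change 2.79 ± 0.41; edgeR adjusted p = 0.00236).

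Cellulose synthases and water channels gave calls that turned on single libraries. With only the 2 groups fitted, no CESA gene was called and no aquaporin was called lower. CESA1, CESA2 and CESA3 had log2 fold changes of -1.04, -1.0 and -1.01, with edgeR adjusted p of 0.0257, 0.0181 and 0.0235. Of the 9 tested CESA genes these 3 were called lower, against 1 without hypoxia replicate 1 or 3 and none without control replicate 1 or 3. CESA5 was called higher, at 47.5, 46.1 and 48.2 CPM against 33.7, 38.7 and 32.7 CPM (log2 fold change 0.43 ± 0.11; edgeR adjusted p = 0.0389). Leaving out hypoxia replicate 1 or 3, control replicate 1 or 3, any 1 of the wild-type control libraries, or replicate 2 or 3 of wild-type hypoxia lost that call, at adjusted p of 0.0519 to 0.166. Of 25 aquaporins, 4 were called lower, a count that was 1 without control replicate 1, 2 without control replicate 3, 2 without wild-type hypoxia replicate 3, and 7 without control replicate 2. NIP2;1, a channel of the aquaporin family known to be induced by low oxygen, was the one called higher, with 59 reads over the hypoxia group and 1 over the control group (ratio 75.0, exact 95% counting interval 12.9 to 3010). Its single control read lay in replicate 2, without which the value was a bound of at least 17.9-fold, and it was 46.1 without control replicate 3. The aquaporin listed as TIP2 (AT3G26520), a vacuolar water channel, fell to 479, 467 and 401 CPM against 1084, 878 and 1346 CPM (log2 fold change -1.30 ± 0.18; edgeR adjusted p = 0.00161, and 0.0516 with only the 2 groups).

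Other genes with large falls had varied roles. WRI4, an AP2-domain factor of wax synthesis, stood at 13.8, 12.5 and 5.4 CPM against 85.2, 70.8 and 78.8 CPM (log2 fold change -2.85 ± 0.28; edgeR adjusted p = 1.5e-04). EXL5, of the EXORDIUM family of growth-related proteins, stood at 8.13, 7.22 and 3.69 CPM against 51.2, 33.4 and 39.2 CPM (log2 fold change -2.66 ± 0.34; edgeR adjusted p = 8.1e-04). SWEET12, a sucrose exporter that loads the phloem, stood at 6.68, 9.82 and 18.1 CPM against 73.2, 47.0 and 51.3 CPM (log2 fold change -2.35 ± 0.31; edgeR adjusted p = 0.00123). The groups of all 3 were far apart, and hypoxia replicate 3 was lowest for WRI4 and EXL5 and highest for SWEET12. AT5G26220, a ChaC-like protein of a family that degrades glutathione, fell by 3.54 ± 0.55 (edgeR adjusted p = 0.00354), and DREB26, another AP2-domain factor, by 2.98 ± 0.52 (edgeR adjusted p = 0.00737). FER4, a ferritin that stores iron, was the call among 6 tested iron genes and fell by 1.74 ± 0.19 (edgeR adjusted p = 3.6e-04). LUX, an evening component of the circadian clock, was the call among 22 clock genes and fell by 1.26 ± 0.21 (edgeR adjusted p = 0.00495, and 0.0672 with only the 2 groups). Without hypoxia replicate 2, 4 clock genes were called lower, in a fit that called 981 genes lower in total. With all libraries 619 genes, 3.4% of those tested, were called lower.

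Genes that respond to sugar starvation were lower. Of 15, 9 were called lower and none higher, with a median log2 fold change of -0.85 in med25-1 and -0.36 in wild type, where none was called. When only the 2 med25-1 groups were fitted, all 9 lost their call, at adjusted p of 0.0909 to 0.248. The summed level was 4561, 5801 and 2993 CPM under hypoxia against 8021, 6625 and 9575 CPM in control. DIN4, a subunit of the branched-chain keto acid dehydrogenase, stood at 74.0, 71.7 and 58.1 CPM against 113, 108 and 146 CPM (log2 fold change -0.85 ± 0.15; edgeR adjusted p = 0.00872, and 0.119 with only the 2 groups). MCCB, a subunit of methylcrotonyl-CoA carboxylase in leucine breakdown, fell by 0.87 ± 0.17 (edgeR adjusted p = 0.012, and 0.128 with only the 2 groups). ATL8, a RING-type protein, fell by 1.39 ± 0.24 (edgeR adjusted p = 0.00649, and 0.0909 with only the 2 groups). The count was 7 without hypoxia replicate 3, 3 without control replicate 1 or 3, and 5 without wild-type hypoxia or control replicate 2. Whether the list differed between the lines was tested gene by gene only, and no member was called in that test.

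Defence and protein-folding genes reached their highest sums in hypoxia replicate 3. The 21 salicylate genes summed to 3239, 3442 and 12360 CPM under hypoxia and to 1486, 2676 and 2224 CPM in control. In wild type the same sum was 309 to 311 CPM under hypoxia and 191 to 214 CPM in control. All 21 had positive fold changes, with a median of 1.56 on the log2 scale, and none was called. PR5, a pathogenesis-related protein, came closest, at 308, 271 and 1222 CPM against 85.7, 145 and 250.4 CPM. Its log2 fold change was 1.90 ± 0.52 (edgeR adjusted p = 0.0557), and 0.85 without hypoxia replicate 3. Without control replicate 2, which held the highest control sum, 12 members were called higher, and 6, 4 and 1 were without hypoxia replicate 1, hypoxia replicate 2 and control replicate 3. WRKY factors, many of them defence regulators, followed: none of 53 was called higher, against 10 without control replicate 2, 6 without hypoxia replicate 2 and 1 without hypoxia replicate 1. The one WRKY gene called, WRKY69, was lower, at 3.86, 6.48 and 4.09 CPM against 9.07, 6.80 and 10.8 CPM (log2 fold change -0.87 ± 0.23; edgeR adjusted p = 0.0497). It kept its call only without hypoxia replicate 2 or control replicate 2 among the fits leaving out 1 library, and its adjusted p in the others was 0.0642 to 0.187, and 0.246 with only the 2 groups.

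The list of endoplasmic reticulum chaperones held 18 tested genes, among them the transcription factors BZIP60 and BZIP28. These 18 summed to 2484, 2548 and 6712 CPM under hypoxia and to 1544, 2276 and 1527 CPM in control, and 3 were called higher. BIP3, an inducible Hsp70 of that compartment, stood at 13.3, 26.9 and 99.8 CPM against 4.04, 10.1 and 4.90 CPM. The log2 fold change was 2.87 ± 0.61 (edgeR adjusted p = 0.0199), and 1.67 without hypoxia replicate 3. The call was lost without control replicate 1 or 3, at adjusted p of 0.104 and 0.0932. The count of this list was 1 without hypoxia replicate 3, none without control replicate 1 or 3, 1 without wild-type hypoxia replicate 3 or control replicate 2 or 3, and 14, 16 and 10 without hypoxia replicate 1, hypoxia replicate 2 and control replicate 2. The 20 tested genes of the cytosolic chaperone list summed to 2239, 2614 and 4912 CPM against 1960, 2704 and 1694 CPM, so the groups overlapped. Of these, 4 were called higher, 1 without hypoxia replicate 3. As drawn up, the list also holds small heat shock proteins of organelles, such as HSP21, and the coactivator MBF1C, which was among the 4 called. HSP17.6A, a small heat shock protein whose reads can be shared with near-identical copies, stood at 4.68, 2.23 and 6.85 CPM against 0.404, 1.16 and 0.150 CPM. Its log2 fold change was 3.02 ± 0.60 (edgeR adjusted p = 0.0137) and 4.00 without control replicate 2, and its call was lost without control replicate 1 (adjusted p = 0.0772). The cytosolic count was 16 without control replicate 2, 8 without hypoxia replicate 2 and 0 without control replicate 1. It was also 1 when control replicate 3, wild-type hypoxia replicate 3 or wild-type control replicate 2 or 3 was left out, and 2 without wild-type hypoxia replicate 2 or wild-type control replicate 1. With only the 2 groups fitted no member of either chaperone list was called. The part of hypoxia replicate 3 in these changes was not tested beyond the values given without it.

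**Figure D4:**
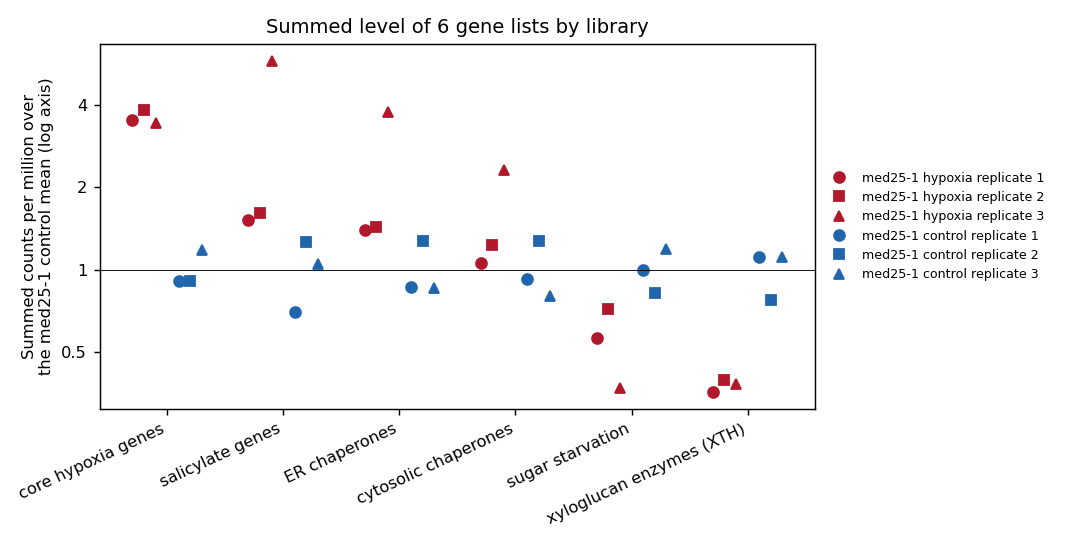
Summed CPM of 6 gene lists in each med25-1 library, divided by the mean of the 3 control libraries (log axis), hypoxia left and control right. The core hypoxia and XTH sums separate the groups with replicate 3 among its own, while for the salicylate and chaperone lists hypoxia replicate 3 lies above every other library.

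Cold and abscisic acid genes gave 2 of 22 called higher in med25-1, against 1.88% of all tested genes, with a median log2 fold change of 0.58. In wild type 12 were called higher, against 3.05% of all tested genes, with a median of 1.60. The med25-1 count was 0 with only the 2 groups fitted, 6 without hypoxia replicate 3, none without hypoxia replicate 2 or control replicate 1, and 1 without any 1 of the wild-type hypoxia libraries or without wild-type control replicate 3. CBF3, a cold-induced AP2-domain activator, stood at 6.41, 8.23 and 4.35 CPM against 2.54, 3.53 and 3.25 CPM. The log2 fold change was 1.05 ± 0.24 (edgeR adjusted p = 0.0263), and the call was lost without hypoxia replicate 2 or control replicate 1 or 3, at adjusted p of 0.0537, 0.125 and 0.0767. The wild-type value was 2.57, and the difference between lines was -1.53 ± 0.35 (edgeR adjusted p = 0.845). RBOHD, an NADPH oxidase of reactive oxygen bursts, had a log2 fold change of 1.16 ± 0.26 in med25-1 (edgeR adjusted p = 0.0281) and of 2.46 in wild type. Its med25-1 call was lost without hypoxia replicate 3 or control replicate 1 or 3, at adjusted p of 0.0613, 0.129 and 0.0797.

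Other lists gave few calls or none, where 1.88% of all tested genes were called higher and 3.4% lower. Of 43 genes of lipid transfer, cutin and wax, 3 were called lower, and none was without control replicate 1. KCS20, an elongase of very long fatty acids, gave the smallest p of these, at 43.1, 43.0 and 37.2 CPM against 89.9, 76.8 and 69.9 CPM (log2 fold change -0.94 ± 0.17; edgeR adjusted p = 0.0103, and 0.055 without control replicate 1). None of 30 jasmonate genes, 28 genes of the AUX/IAA list, 34 glutathione S-transferases, 29 cell cycle genes, 11 ribosome biogenesis genes or 7 class II trehalose synthases was called by edgeR with all libraries. With 1 library left out, glutathione S-transferases gave 3 calls upward without control replicate 2 and 2 without hypoxia replicate 1 or 2. The AUX/IAA list gave 2 upward without hypoxia replicate 3, 1 in each direction without hypoxia replicate 2, 1 downward without hypoxia replicate 1 and 1 upward without wild-type control replicate 1. The jasmonate list gave 1 in each direction without hypoxia replicate 2 and 1 downward without control replicate 2, and the cell cycle list 1 upward without wild-type hypoxia replicate 1. Of the 43 photosynthesis genes 1 was called lower, RBCS2B, a small subunit of Rubisco whose reads can be shared with its copies. It had a log2 fold change of -1.44 (edgeR adjusted p = 0.0433), and the call was lost without hypoxia replicate 1, control replicate 1 or 3, or 5 of the wild-type libraries. The sum of that list was 149300, 141530 and 83094 CPM under hypoxia against 137950, 147310 and 136500 CPM in control, so replicate 3 alone lay below the control range. Of the 17 Mediator subunits tested, MED34 alone was called, with a log2 fold change of -0.60 ± 0.12 (edgeR adjusted p = 0.0136), and its call was lost without control replicate 1 or 3, at adjusted p of 0.0607 and 0.0538. With only the 2 groups fitted, no gene of the lipid, photosynthesis or Mediator lists was called.

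Intron reads give a second readout of the same libraries and can come from RNA not yet spliced. Their source in these poly(A) libraries was not tested. They made up 1.73% ± 0.162 of gene reads under hypoxia and 1.84% ± 0.0557 in control (SD, n = 3 each), a difference of -0.108 percentage points (two-sided exact permutation test, p = 0.4, where 0.1 is the smallest p possible). Of 4374 genes with enough intron reads, 101 (2.31%) were called higher and 77 (1.76%) lower. Among the genes called on gene reads, 325 had an intron test, and 317 of them had the same sign. Of 104 such genes called higher, 50 were also called on intron reads, and of 221 called lower, 59 were. The gene reads hold the intron reads, so this is no independent test.

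HB1 had 230, 289 and 72 intron reads under hypoxia and none in any control library. PCO1 had 81, 104 and 24 under hypoxia and likewise none in control. For LBD41 the counts were 53, 72 and 17 against 4, 0 and 0, a log2 fold change of 5.31 (edgeR adjusted p = 2.6e-06), which was 8.64 without control replicate 1 and 4.65 without control replicate 3. On the lower side, WRI4 had 48, 41 and 8 intron reads against 247, 192 and 306 (log2 fold change -2.62; edgeR adjusted p = 3.2e-06). Introns made up 24.0%, 17.37% and 19.5% of its reads under hypoxia and 16.8%, 18.4% and 19.4% in control, so intron and exon reads fell by like amounts. GASA1 and XTH22 had log2 fold changes of -3.27 (edgeR adjusted p = 0.00315) and -2.78 (edgeR adjusted p = 0.00292) on intron reads, close to their gene-read values. SULTR1;2, a sulfate transporter best known from roots, had 3, 31 and 2 intron reads against 73, 40 and 161, with a log2 fold change of -2.57 (edgeR adjusted p = 0.00504) that was -4.45 without hypoxia replicate 2.

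Set beside wild type, which had its own hypoxia and control libraries, the response of med25-1 went the same way for nearly every called gene. The same test called 1181 genes (6.48%) in wild type, 556 (3.05%) higher and 625 (3.43%) lower. In both lines 192 genes were called higher, which is 56.1% of the med25-1 calls upward and 34.5% of those in wild type. Called lower in both were 357, which is 57.7% of the med25-1 calls downward and 57.1% of those in wild type. None was called in opposite directions. Of the 342 genes called higher in med25-1, 325 had a positive fold change in wild type, and of the 619 called lower, 603 had a negative one. Among the stable genes all 94 higher and all 188 lower kept their sign in wild type, where 88 and 167 of them were called. Across all 18212 genes the log2 fold changes of the 2 lines correlated at a Pearson r of 0.66, a description across genes that share libraries and are not independent.

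**Figure D5:**
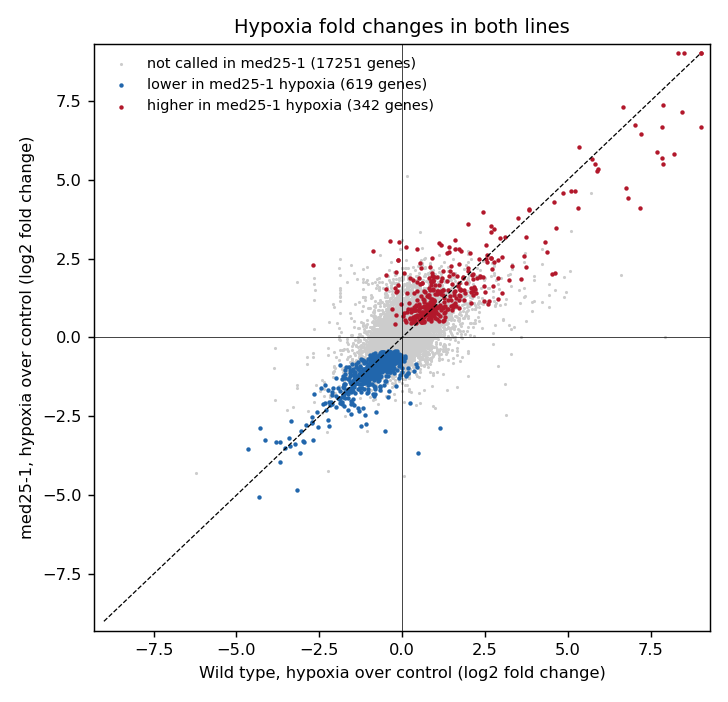
Log2 fold change under hypoxia in wild type (x axis) and in med25-1 (y axis) for 18212 tested genes, coloured by the call in med25-1, with values beyond 9 drawn at 9 and a dashed line of equality. Of the genes called higher in med25-1, 325 of 342 lie to the right of 0 on the x axis.

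The direct test of the difference between the 2 responses called no gene with edgeR, where the smallest adjusted p was 0.155. At an unadjusted p under 0.05 there were 910 genes, and 911 are 5% of those tested. Limma's voom also called none, and DESeq2 called 16, with 1 value higher in med25-1 and 15 lower. GDH2 was among the 16, at a log2 fold change of -1.07 in med25-1 and 0.37 in wild type. KIN1, a cold-induced gene with a near-identical copy, was at 0.53 and 3.75, and ERF2, an ethylene response factor, at -0.45 and 1.64. The one with a higher value in med25-1 was CESA5, a cellulose synthase subunit, at 0.43 and -0.20. With edgeR the adjusted p of these 16 ran from 0.155 to 0.845.

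In the authors' deposited table, which used Baggerley's test on proportions, 1554 of the genes tested here had an FDR corrected p-value under 0.05 for hypoxia against control in med25-1, with 384 higher, 1166 lower and 4 with no fold change value in the authors' deposited table. Of the 961 genes called here, 759 were called in the same direction in the authors' deposited table, which is 79.0% of the calls made here and 48.8% of those in that table. None was called in the opposite direction there.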

How the data were processed

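Per the labels' protocols, libraries were made from poly(A) RNA with a strand-preserving kit. TAIR10 is the build per the submitters' processing notes. The sources used here do not name the aligner, the counter or the counting strand, so overlapping and antisense genes are uncertain. Counts of uniquely placed gene reads, deposited by the authors, were the measure used. Exon, total gene and intron counts, deposited by the authors as well, served as alternatives or second readout. RPKM values deposited by the authors were not tested. A score (signed fold change) and FDR corrected p-values came from the authors' Baggerley's test, per the file headers.

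Genes passing filterByExpr were scaled by TMM and fitted with edgeR 4.0.16 in R 4.3.3, with 1 mean for each of 4 groups over all 12 libraries. Alternatives used DESeq2 1.42.0 and limma 3.58.1, and the model was tested on simulated data. The SE of a fold change is approximate. Exact intervals at 95% cover counting error only. Replicates differed by more than sampling noise. Intron reads had their own filter and scaling.

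The comparison and its 34 gene lists were chosen with earlier results of these data known. Named were the 12 largest stable changes in each direction with a mean of at least 50 reads and no overlap between groups, up to 4 stable members of each list in each direction or the member with the smallest p, a fixed set of hypoxia genes with MED25, and the 4 largest intron changes in each direction. Other named genes were chosen after their values were seen.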

Additional observations from a re-analysis of the deposited data

How the results depend on the processing

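The 961 calls for hypoxia in med25-1 became 1926 with DESeq2, 175 (77 higher, 98 lower) when only its 2 groups were fitted, and 513 at a minimum change of 2-fold. They ran from 323 to 1841 over the fits leaving out 1 library. The wild-type calls, 1181, became 2408 with only its 2 groups, 5461 with voom and sample weights and 650 at 2-fold, and ran from 559 to 1933. The difference between lines went from 0 to 16 calls with DESeq2. The 178 intron calls became 63 with a mean of at least 50 reads and 57 with only the 2 groups, and ran from 86 to 261 without 1 library. Whether replicate numbers pair the samples is not known. In deviations from their group means, same-numbered hypoxia and control libraries of med25-1 correlated at 0.364, -0.313 and 0.0457, and no number was best matched throughout. With 3 libraries in a group these deviations depend on one another, so the check cannot exclude a shared batch. With the replicate number as a block, 800 genes were called in med25-1, 274 higher and 526 lower. Other scalings, filters and read classes moved that count by less than 1.5-fold. Genes with 1 to 3 control reads, such as SAD6 and HRE2, carry wide counting intervals.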

Other observations

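A pair of further gene families drew attention after their values were seen and carry no test as families. Of 14 tested genes with the DUF581 domain, a zinc-finger domain of plant proteins that bind the energy-sensing kinase SnRK1, 4 were called higher in med25-1 and none lower, against 1.88% of all tested genes called higher, and in 8 the hypoxia libraries all lay above the control libraries, against 9.36% of all. The log2 fold changes were 3.80 for AT3G22550, 3.14 for AT4G17670 and 1.90 for AT5G47060, and AT5G49120 had 33 reads over the hypoxia group and 2 over the control group (ratio 21.0, exact 95% counting interval 5.36 to 180). The family's median was 0.49 in med25-1 and 0.68 in wild type. Of 7 tested EXORDIUM-like genes, 3 were called lower, against 3.4% of all tested genes, and none higher. EXL5 and EXL3 fell by 2.66 and 1.51 on the log2 scale, and EXL7 was at 1.52 without a call. The third, PHI-1, lost its call without hypoxia replicate 1 or 3 or control replicate 1 or 3.

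Some stable genes lay next to each other on the chromosome, and whether this occurs more often than among other genes was not tested. LBD41 and AT3G02555 lie 1484 bases apart on the same strand and rose by 5.64 and 0.90 on the log2 scale. PFK6 and nPAP lie 1158 bases apart with their starts facing each other and rose by 2.41 and 1.00.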
